A study of Homo sapiens with 18 samples.

Results

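The HES, HEY and BHLHE40 repressors are basic helix-loop-helix-Orange proteins, and chromatin immunoprecipitation followed by sequencing (ChIP-seq) of TLE3 and FOXA1 was examined around 10 of their genes: HES1, HES2, HES4, HES5 and HES6, then HEY1, HEY2 and HEYL, then BHLHE40 and BHLHE41. The genes were grouped by family, and they were chosen with earlier results of these data known. All 10 were found among 19974 protein-coding genes of the RefSeq GRCh38.p14 table. A peak was assigned to a gene when its centre lay in the gene body or within 50 kb of it, and a narrower 10 kb window was used beside it. Of 1134194 peaks in 12 lists, 887 lay within 50 kb of these genes. Where peaks of both replicates of a line and factor fell into the same merged region, that region is called a site.

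The series mapped TLE3 and FOXA1 in 3 human breast cancer lines that its design text calls luminal, to learn how far both proteins share binding places. The groups were TLE3 in T47D, in SKBR3 and in MDA-MB-453, and FOXA1 in T47D, in SKBR3 and in MDA-MB-453, with 2 libraries each that the labels number as biological replicates. T47D is an estrogen receptor-positive line, SKBR3 carries amplified ERBB2, and MDA-MB-453 expresses the androgen receptor. No line carried a treatment or an engineered allele in the labels, and each was maintained in standard culture. Every line is a single cell line, so a difference between lines cannot be told apart from a difference between these particular cultures. TLE3 cells received an additional crosslinker before formaldehyde and FOXA1 cells did not, per the labels, so the factor and the fixation cannot be told apart. The 6 input samples were not used here.

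Proteins of this family repress transcription. Notch signalling turns on HES and HEY genes when the cleaved receptor joins the DNA-binding protein RBPJ, and most HES proteins end in a short tryptophan-containing peptide through which they recruit corepressors of the Groucho family, to which TLE3 belongs. HEY proteins carry a variant of that peptide, and BHLHE40 and BHLHE41 lack it and repress clock genes through E boxes. FOXA1 is a pioneer factor of luminal breast cells that opens chromatin at enhancers. The lists hold binding and no RNA, so nothing below says whether a gene was expressed.

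Promoter sequence is shown for the 4 genes whose start lay inside a TLE3 site in at least 1 line, and for HES5, whose promoter carries the same letters without such a site. Each is the 250 bases before the gene start, 5′ to 3′ on the gene's strand, from RefSeq GRCh38.p14. Capitals mark the RBPJ core GTGGGAA, on either strand, in the HES and HEY2 promoters, and the E box CACGTG in the BHLHE40 promoter. HES1 is at chr3:194135898-194136147 on the plus strand, HES4 at chr1:1000098-1000347 on the minus strand, HES5 at chr1:2530264-2530513 on the minus strand, HEY2 at chr6:125749382-125749631 on the plus strand and BHLHE40 at chr3:4979187-4979436 on the plus strand.
HES1: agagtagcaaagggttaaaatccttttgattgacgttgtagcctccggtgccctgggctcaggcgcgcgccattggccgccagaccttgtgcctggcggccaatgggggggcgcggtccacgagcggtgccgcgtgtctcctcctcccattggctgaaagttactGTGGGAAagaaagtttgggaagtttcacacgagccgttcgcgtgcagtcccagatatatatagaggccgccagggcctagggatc
HES4: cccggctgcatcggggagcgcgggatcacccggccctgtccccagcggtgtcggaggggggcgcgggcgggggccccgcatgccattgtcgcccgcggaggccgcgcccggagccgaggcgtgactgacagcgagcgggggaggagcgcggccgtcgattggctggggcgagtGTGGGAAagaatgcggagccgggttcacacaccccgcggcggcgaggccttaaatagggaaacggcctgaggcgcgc
HES5: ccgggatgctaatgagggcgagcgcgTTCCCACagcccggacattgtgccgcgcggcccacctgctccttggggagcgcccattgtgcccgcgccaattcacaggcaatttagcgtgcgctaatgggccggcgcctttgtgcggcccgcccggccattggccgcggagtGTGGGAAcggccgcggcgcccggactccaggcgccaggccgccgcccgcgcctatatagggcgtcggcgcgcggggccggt
HEY2: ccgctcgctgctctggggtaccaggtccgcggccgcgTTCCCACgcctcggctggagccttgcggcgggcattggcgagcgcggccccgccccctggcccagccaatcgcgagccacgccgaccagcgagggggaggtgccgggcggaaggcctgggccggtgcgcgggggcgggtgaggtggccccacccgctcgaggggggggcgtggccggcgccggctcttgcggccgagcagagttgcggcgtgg
BHLHE40: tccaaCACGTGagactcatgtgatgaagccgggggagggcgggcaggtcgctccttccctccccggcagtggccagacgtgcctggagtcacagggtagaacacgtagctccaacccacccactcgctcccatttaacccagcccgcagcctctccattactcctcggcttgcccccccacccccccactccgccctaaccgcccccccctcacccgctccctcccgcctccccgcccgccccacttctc

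GTGGGAA, searched on both strands, was in 5 of the 9 promoters that matched the table (HES1, HES4, HES5, HEY2 and HEYL), against 5.26% of 15812 protein-coding promoters of the same length. In HES1 it lay 85 to 79 bases before the start, in HES4 77 to 71 and in HEY2 213 to 207. HES5 held 2 copies, at 224 to 218 and at 81 to 75 bases before the start. The E box CACGTG was in 2 of the 9 (BHLHE40 and BHLHE41), against 7.83%. The related letters CACGCG were also in 2 of the 9 (HES1 and BHLHE41), against 12.6%. CACNAG, the N box of HES proteins, was in HES1 alone, against 30.5%, and there it did not overlap another searched motif. The forkhead cores TGTTTAC and TGTTTGC were in 0 of the 9, against 2.26% and 2.52%, which says only that these letters are not in this window.

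Set on the sites, the HES1 core lay inside a TLE3 site and inside a FOXA1 site in all 3 lines. The HES4 core lay inside a TLE3 site in T47D and SKBR3 and not in MDA-MB-453. It lay inside a FOXA1 site in T47D and MDA-MB-453 and not in SKBR3. The HEY2 core lay inside a TLE3 site in T47D only, and inside no FOXA1 site of the 3 lines. The HES5 and HEYL cores and the BHLHE41 E box lay in no site of either factor. The BHLHE40 E box lay in a TLE3 site and a FOXA1 site in all 3 lines, but outside the peak of SKBR3 TLE3 replicate 1 taken alone. A match is a description of letters, not of RBPJ binding, which was not measured.

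Lists held between 21149 and 94363 peaks for TLE3 and between 107598 and 188029 for FOXA1. They give no read counts, so sequencing depth is unknown and the number of peaks reflects depth as well as binding. The library labelled SKBR3 TLE3 replicate 2 stood apart. It held 94363 peaks against 21149 in replicate 1, and 21.7% of its peaks overlapped a FOXA1 site of SKBR3 against 93.5% in replicate 1. The main SKBR3 TLE3 results are therefore given also for replicate 1 alone. Of the marker genes listed for cell identity, a TLE3 site lay within 50 kb of 8, 7 and 8 of 8 luminal genes in T47D, SKBR3 and MDA-MB-453, of 3, 2 and 2 of 4 basal genes, and of 8, 2 and 5 of 9 genes of other cell types. Peaks of SKBR3 replicate 1 alone lay near 7 luminal, 2 basal and 6 other genes. Of all protein-coding genes, 74.7% in T47D, 35.3% in SKBR3 and 55.3% in MDA-MB-453 had such a site. For peaks of SKBR3 replicate 1 alone it was 57.3%.

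TLE3 was found near most of these genes, and by sites summed over the lines most often near HES1 and BHLHE40. Within 50 kb, TLE3 sites lay near 9 of the 10 genes in T47D, where HES5 was the exception, near 8 in SKBR3 and near 6 in MDA-MB-453. The shares of all protein-coding genes with such a site were 74.7% in T47D, 35.3% in SKBR3 and 55.3% in MDA-MB-453. Among the 5658 protein-coding genes with a body of at most 10 kb, a closer match in length, they were 65.1%, 29.6% and 41.8%. SKBR3 TLE3 replicate 1 alone had a peak near 8 of the 10, against 57.3% of all and 46% of short genes. Replicate 2 alone had a peak near all 10, against 96.5%. The counts in T47D and MDA-MB-453 lay near the background of all genes. FOXA1 sites lay near 10 of 10 genes in each line, against 95%, 89.8% and 95.1% of all genes in T47D, SKBR3 and MDA-MB-453, so the FOXA1 count is at the background.

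**Figure D1:**
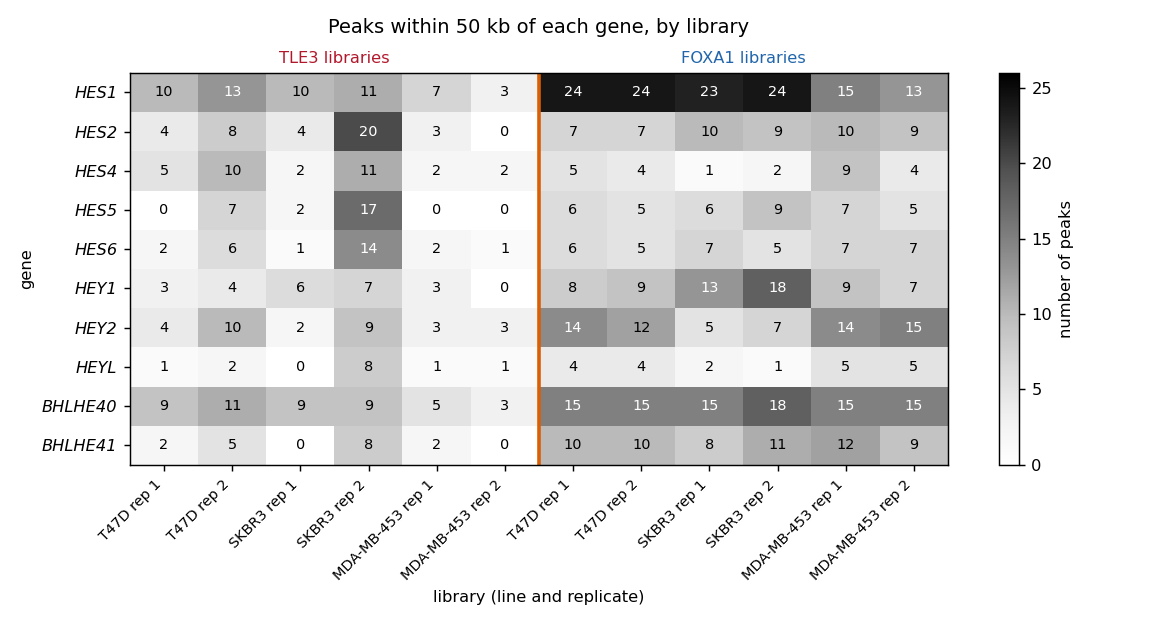
Number of peaks within 50 kb of each gene (rows) in each of the 12 libraries (columns), with TLE3 libraries left of the orange line and FOXA1 libraries right of it; darker cells hold more peaks. HES1 has between 13 and 24 peaks in every FOXA1 library and between 3 and 13 in every TLE3 library, and the SKBR3 TLE3 replicate 2 column is dark across genes that other TLE3 libraries leave nearly empty.

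Within 10 kb the TLE3 counts were smaller. In MDA-MB-453 they were 3 of 10 (HES1, HEY2 and BHLHE40), against 32.3% of all protein-coding genes and 13.5% of short ones. In T47D TLE3 sites lay within 10 kb of HES1, HES2, HES4, HES6, HEY1, HEY2, BHLHE40 and BHLHE41, against 50.3% of all and 32.5% of short genes. In SKBR3 they lay within 10 kb of HES1, HES2, HES4, HES5, HEY1, HEY2 and BHLHE40, against 19.4% of all and 11% of short genes. The same SKBR3 genes had a peak of replicate 1 alone within 10 kb, against 34.3% of all genes. HEYL was the one gene with no TLE3 site within 10 kb in any line. FOXA1 sites lay within 10 kb of every one of the 10 in T47D and MDA-MB-453, against 80.4% and 82.4%, and of all but HES4 in SKBR3, against 70.7%.

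HES1, the best known Notch target of the family, had the most sites of both factors summed over the lines, with 18 for TLE3 (22 with SKBR3 replicate 1 alone) and 54 for FOXA1. In MDA-MB-453 it tied with HEY2 and BHLHE40 for TLE3 and with HEY2 for FOXA1, and in SKBR3 TLE3 replicate 2 HES2, HES5 and HES6 had more peaks, at 20, 17 and 14. TLE3 libraries listed 10 and 13 peaks within 50 kb in T47D, 10 and 11 in SKBR3 and 7 and 3 in MDA-MB-453. FOXA1 libraries listed 24 and 24 in T47D, 23 and 24 in SKBR3 and 15 and 13 in MDA-MB-453. The ranges of the factors met only at 13 peaks, but every FOXA1 list was also longer than every TLE3 list. Per 100000 peaks of the list, TLE3 was higher in T47D (33.1 and 21.2 against 16.3 and 16.1) and MDA-MB-453 (16.4 and 13.2 against 7.98 and 8.50). In SKBR3 replicate 1 was higher and replicate 2 lower (47.3 and 11.7 against 21.4 and 20.6). As sites, HES1 had 9 for TLE3 in T47D, 6 in SKBR3 (10 peaks in replicate 1 alone) and 3 in MDA-MB-453. It had 21, 20 and 13 for FOXA1. These numbers placed HES1 at the 99.6th, 99.8th and 95.7th percentile of short genes for TLE3 sites in T47D, SKBR3 and MDA-MB-453, and at the 99.6th, 99.8th and 95.8th for FOXA1 sites. By SKBR3 replicate 1 alone the TLE3 value was the 99.9th. Among all protein-coding genes HES1 stood lower, at the 98.4th, 99.6th and 87.7th for TLE3 and the 96.1st, 96.5th and 83.5th for FOXA1 in the same order of lines. A single other protein-coding gene, LOC102724877, lies within 50 kb of HES1.

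The HES1 start lay inside a TLE3 site in each line. In T47D that site, chr3:194133629-194136674, was 3046 bp wide, wider than 99.96% of T47D TLE3 sites. Its peaks stood at the 98.8th and 98.9th percentile of the authors' score in replicates 1 and 2. In SKBR3 replicate 1 the same stretch held a peak at chr3:194134046-194135427, at the 99.9th percentile, and one over the start at chr3:194135774-194136403, at the 98.9th. In replicate 2 the SKBR3 peaks there stood lower, at the 25.4th and 24.5th, and none covered the start. In MDA-MB-453 the stretch held 2 smaller sites. The site upstream of the start, chr3:194134384-194135220, stood at the 88.9th and 79.7th percentile, and the 244 bp site over the start at the 6.9th and 18.9th. An MDA-MB-453 replicate 1 peak covered the start, and no replicate 2 peak did. The highest scoring FOXA1 site near HES1 lay in this stretch in every line, its centre 1246 or 1247 bp before the start, at the 98.8th percentile in T47D, the 94.7th in SKBR3 and the 96.7th in MDA-MB-453.

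Beyond the start, a TLE3 site lay 5591 bp after the HES1 start in T47D at the 94.8th and 97.8th percentile, and replicate 1 of SKBR3 had a peak there at the 97.6th. No MDA-MB-453 TLE3 site lay there, although FOXA1 sites of all 3 lines did. T47D had a further strong site 48472 bp after the start, at the 95.9th and 97.9th percentile. Replicate 1 of SKBR3 also had a peak there, at the 82.1st.

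HES2, a less studied relative, had no TLE3 site in MDA-MB-453 and 4 in T47D. TLE3 libraries listed 4 and 8 peaks in T47D, 4 and 20 in SKBR3 and 3 and 0 in MDA-MB-453. FOXA1 libraries listed 7 and 7, 10 and 9, and 10 and 9 in the same order of lines. The TLE3 site of T47D closest to the gene lay 2189 bp past its end at the 33.7th and 79.9th percentile, and SKBR3 replicate 1 had a peak there at the 79.5th. The highest scoring FOXA1 site near HES2 lay at that same place in each line, with percentiles of 95.1 and 94.9 in the T47D replicates and a mean of 96.7 in SKBR3 and 91.9 in MDA-MB-453. HES2 has 4 protein-coding neighbours within 50 kb (ACOT7, ESPN, TNFRSF25 and PLEKHG5), and its other TLE3 sites include ones centred in ESPN and ACOT7.

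HES4, a human Notch target with no mouse counterpart, had the largest difference of TLE3 over FOXA1 among the 10 in the fit of all 12 libraries. TLE3 libraries listed 5 and 10 peaks in T47D, 2 and 11 in SKBR3 and 2 and 2 in MDA-MB-453. FOXA1 libraries listed 5 and 4 in T47D, 1 and 2 in SKBR3 and 9 and 4 in MDA-MB-453. As sites, HES4 had 5 for TLE3 against 3 for FOXA1 in T47D, 1 against 1 in SKBR3 (2 peaks in replicate 1 alone) and 1 against 4 in MDA-MB-453. A TLE3 site covered the start in T47D, chr1:999899-1000572, at the 31.7th and 81.5th percentile. A T47D replicate 2 peak covered the start, and no replicate 1 peak did. SKBR3 replicate 1 had a 258 bp peak over the start at the 46.2nd, which no FOXA1 site of SKBR3 overlapped. Replicate 2 covered the same start with a peak at the 94.9th, and the merged region was 4295 bp wide. HES4 has 6 protein-coding neighbours within 50 kb (NOC2L, KLHL17, PLEKHN1, PERM1, ISG15 and AGRN). Of the 5 T47D TLE3 sites, 2 were centred in AGRN and 1 in PERM1, so the count does not belong to HES4 alone.

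HES5, a Notch target of neural progenitors, had TLE3 sites in SKBR3 alone. TLE3 libraries listed 0 and 7 peaks in T47D, 2 and 17 in SKBR3 and 0 and 0 in MDA-MB-453. The peaks of T47D came from 1 library, so they made no site. The 2 SKBR3 sites lay 434 bp past the gene end and 7327 bp before the start. FOXA1 had 4, 6 and 3 sites in T47D, SKBR3 and MDA-MB-453.

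HES6, an atypical member that inhibits HES1, had 2 TLE3 sites in T47D, 1 in SKBR3 and 1 in MDA-MB-453. One position, 45863 bp before the HES6 start and inside the circadian gene PER2, was shared by all 3 lines. It stood at the 94.5th and 96.5th percentile in T47D, the 59.6th in SKBR3 replicate 1, the 11.2nd in SKBR3 replicate 2, and the 85.5th and 63.5th in MDA-MB-453. FOXA1 sites there stood at the 99.6th, 99.0th and 99.7th percentile in T47D, SKBR3 and MDA-MB-453. The other T47D site lay 4141 bp before the HES6 start, also inside PER2.

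HEY1, a Notch effector of blood vessels, had 3 TLE3 sites in T47D, 3 in SKBR3 (6 peaks in replicate 1 alone) and 0 in MDA-MB-453, where the libraries listed 3 and 0 peaks. FOXA1 had 7, 13 and 6 sites. All 3 T47D positions were also positions of SKBR3. One lay 464 bp outside the gene body in T47D, at the 23.5th and 81.3rd percentile. Another lay 31916 bp outside it, at the 44.0th and 80.1st, and SKBR3 replicate 1 had a peak there at the 97.6th. HEY1 has no protein-coding neighbour within 50 kb, and distances are from the nearer end of the gene.

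HEY2, a Notch effector of heart and arteries, had 4 TLE3 sites in T47D, 1 in SKBR3 (2 peaks in replicate 1 alone) and 3 in MDA-MB-453. TLE3 libraries listed 4 and 10 peaks in T47D, 2 and 9 in SKBR3 and 3 and 3 in MDA-MB-453. FOXA1 libraries listed 14 and 12, 5 and 7, and 14 and 15. The strongest TLE3 site lay 31618 bp before the start in T47D, inside the antisense transcript HEY2-AS1, at the 98.5th and 98.8th percentile. In MDA-MB-453 it stood at the 97.4th and 96.0th. The SKBR3 libraries had no TLE3 site there, although a FOXA1 site of SKBR3 overlapped the position. A second position 7092 bp before the start held a TLE3 site in T47D at the 89.0th and 93.4th percentile and in MDA-MB-453 at the 87.7th and 71.5th, with a peak of SKBR3 replicate 1 at the 27.4th. The T47D site over the HEY2 start was weak, at the 11.6th and 49.3rd percentile, and overlapped no FOXA1 site of any line. A T47D replicate 2 peak covered the start, and no replicate 1 peak did.

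HEYL, a relative of HEY1 and HEY2 that is also a Notch target, had 1 TLE3 site in T47D, 0 in SKBR3 and 1 in MDA-MB-453. These were different positions. The T47D site lay 46552 bp past the gene, at the 18.4th and 50.9th percentile, and the MDA-MB-453 site 13810 bp before the start, inside NT5C1A, at the 74.0th and 2.0th. FOXA1 had 3, 1 and 4 sites.

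BHLHE40, a clock and hypoxia-responsive repressor also called DEC1, came second to HES1 in sites summed over the lines, with 12 for TLE3 (18 with SKBR3 replicate 1 alone) and 34 for FOXA1. In single lines others had more: HES2 had 4 TLE3 sites in SKBR3 against 3, and HEY2 had more FOXA1 sites in T47D (11 against 9) and in MDA-MB-453 (13 against 12). TLE3 libraries listed 9 and 11 peaks in T47D, 9 and 9 in SKBR3 and 5 and 3 in MDA-MB-453. FOXA1 libraries listed 15 and 15, 15 and 18, and 15 and 15, above every TLE3 library, but every FOXA1 list was also longer. Per 100000 peaks of the list, TLE3 was higher in T47D (29.8 and 17.9 against 10.2 and 10.1) and MDA-MB-453 (11.7 and 13.2 against 7.98 and 9.80). In SKBR3 replicate 1 was higher and replicate 2 lower (42.6 and 9.54 against 13.9 and 15.4). The 6 T47D sites, 3 SKBR3 sites (9 peaks in replicate 1 alone) and 3 MDA-MB-453 sites placed BHLHE40 at the 96.8th, 96.1st and 95.7th percentile of short genes, and SKBR3 replicate 1 alone at the 99.8th. Among all protein-coding genes these ranks were lower, at the 93.4th, 94.9th and 87.7th, and the 98.9th by SKBR3 replicate 1 alone. No other protein-coding gene lies within 50 kb. A T47D site of 2579 bp, chr3:4977133-4979711, covered the start at the 87.3rd and 95.3rd percentile. A T47D replicate 2 peak covered the start, and no replicate 1 peak did. The MDA-MB-453 site over the start was 1260 bp wide at the 47.7th and 14.4th percentile. There a replicate 1 peak covered the start, and no replicate 2 peak did. The SKBR3 site ended short of the start, its centre 849 bp before it, at the 48.6th and 50.5th.

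Past the BHLHE40 gene end, a TLE3 site lay in all 3 lines. In T47D it spanned 2089 bp, chr3:4985277-4987365, at the 88.5th and 95.4th percentile. SKBR3 replicate 1 reached the 99.0th there and replicate 2 the 48.8th, and MDA-MB-453 stood at the 89.1st and 87.2nd. A further position about 20534 bp after the start held TLE3 in T47D at the 74.2nd and 94.9th, in SKBR3 replicate 1 at the 77.7th, and in MDA-MB-453 at the 92.2nd and 78.4th.

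BHLHE41, the paralog also called DEC2, had 2 TLE3 sites in T47D and 0 in SKBR3 and MDA-MB-453. TLE3 libraries listed 2 and 5 peaks in T47D, 0 and 8 in SKBR3 and 2 and 0 in MDA-MB-453. Both T47D sites lay past the gene end, by 6667 and 5738 bp, the first at the 6.3rd and 10.6th percentile and the second at the 55.0th and 68.6th. FOXA1 had 6, 5 and 7 sites.

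**Figure D2:**
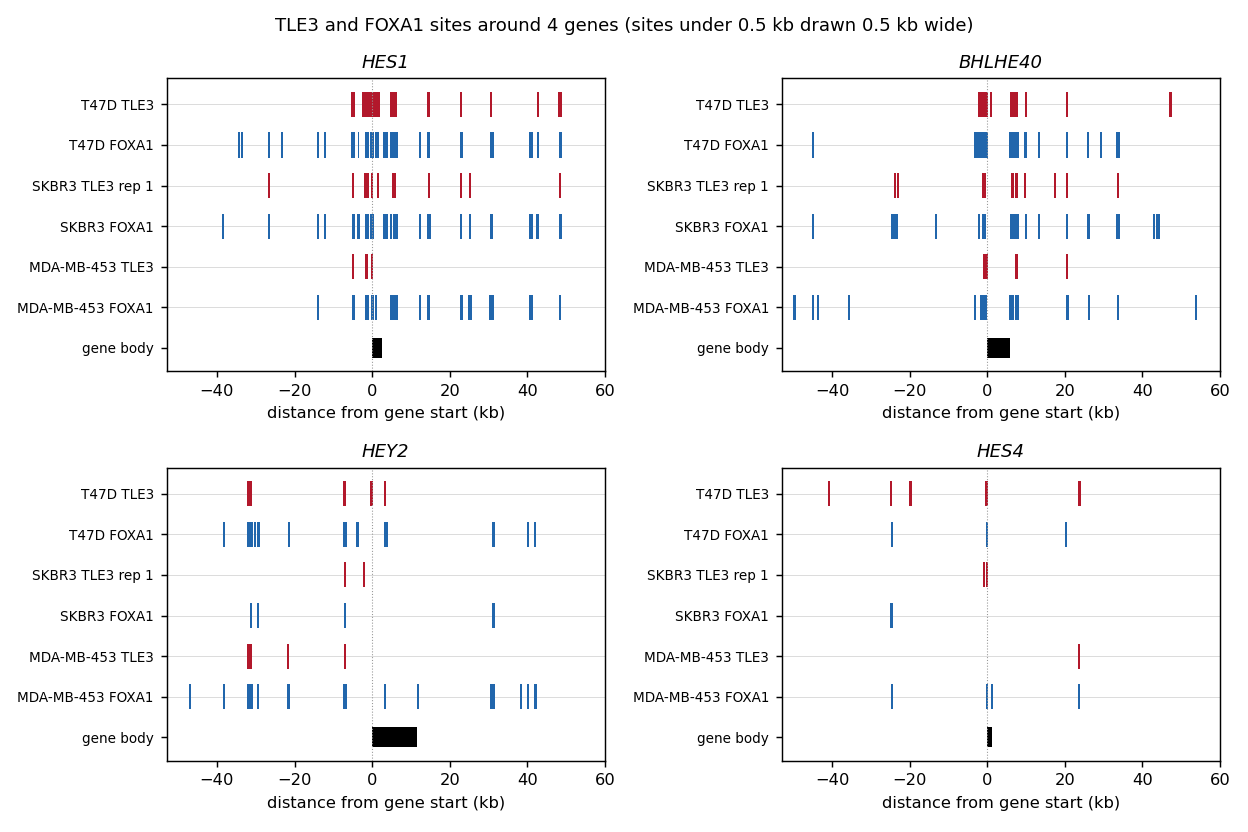
TLE3 sites (red) and FOXA1 sites (blue) by distance from the gene start in kb, read along the gene's strand, for HES1, BHLHE40, HEY2 and HES4, with the gene body in black; SKBR3 TLE3 shows the peaks of replicate 1. Around HES1 and BHLHE40 TLE3 marks cluster at the start and past the gene end on top of FOXA1 marks, while HES4 has 5 T47D TLE3 sites beside 3 FOXA1 sites.

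**Figure D3:**
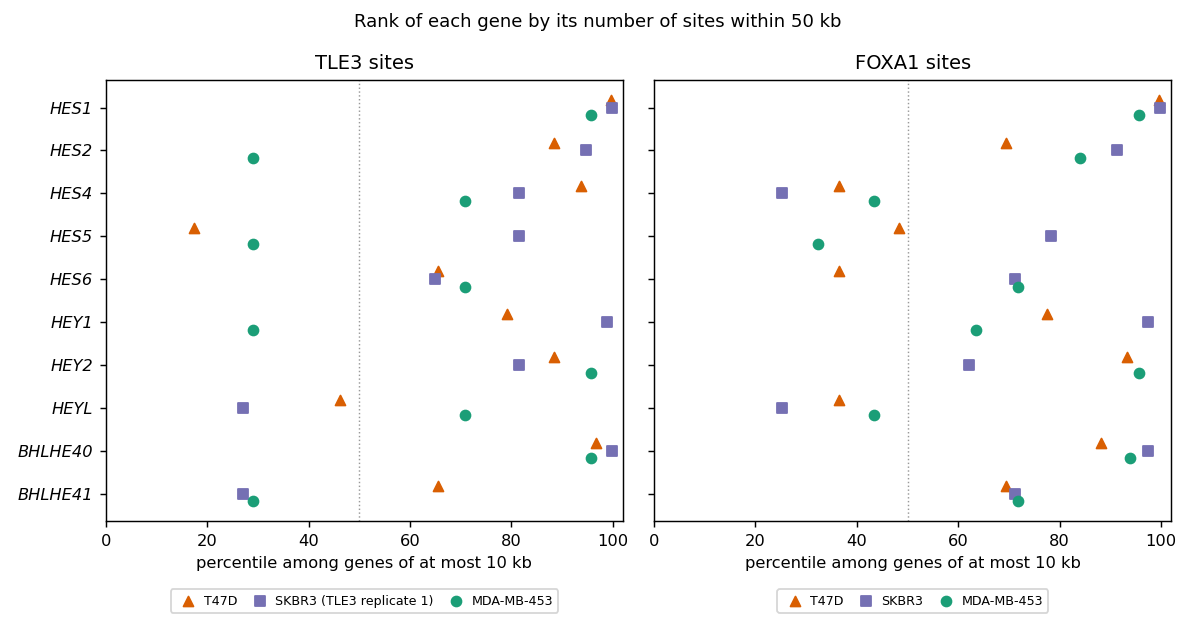
Percentile of each gene by its number of TLE3 sites (left) and FOXA1 sites (right) within 50 kb, among 5658 protein-coding genes of at most 10 kb; the symbols mark the lines, and SKBR3 TLE3 uses replicate 1. HES1 lies above the 95th percentile on both sides in all 3 lines, and HES4 lies at the 70.9th or higher for TLE3 and at the 43.3rd or lower for FOXA1. HEY2 and HEYL are themselves longer than 10 kb.

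Of the 9 genes with a start in the promoter table, 4 had it inside a TLE3 site in T47D (HES1, HES4, HEY2 and BHLHE40), 2 in SKBR3 (HES1 and HES4) and 2 in MDA-MB-453 (HES1 and BHLHE40). The shares of 15812 protein-coding starts were 15.5%, 2.9% and 1.11%. SKBR3 replicate 1 alone covered the same 2 starts, against 1.57% of all starts. FOXA1 sites covered 3 starts in T47D (HES1, HES4 and BHLHE40), 1 in SKBR3 (HES1) and 3 in MDA-MB-453 (HES1, HES4 and HES6), against 25.7%, 11.5% and 31%. The TLE3 counts rest on few libraries. Peaks of T47D replicate 1 alone covered 1 start (HES1), against 10.9% of all starts, and those of replicate 2 alone covered 6, against 33.9%. In MDA-MB-453 replicate 1 alone covered 3 (HES1, BHLHE40 and BHLHE41), against 3.5%, and replicate 2 alone covered 0, against 0.784%. SKBR3 replicate 2 alone covered 6, against 38% of all starts.

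Most TLE3 sites near these genes overlapped a FOXA1 site of the same line. The share was 27 of 36 in T47D (75.0%, exact 95% interval 57.8 to 87.9), 14 of 21 in SKBR3 (66.7%, 43.0 to 85.4) and 12 of 12 in MDA-MB-453 (100%, 73.5 to 100). Over all TLE3 sites of the series it was 87.0%, 91.2% and 99.3%. Peaks of SKBR3 replicate 1 alone gave 27 of 36 (75.0%), against 93.5% over all its peaks, and those of replicate 2 alone gave 33 of 114 (28.9%), against 21.7%. T47D replicate 2 alone gave 40 of 76 (52.6%), for which the share over all its peaks is not given here, so it has no background. The intervals are Clopper-Pearson and cover counting error only, and neighbouring sites are not independent. The share over all sites lay inside the interval in T47D, near its upper end, and in MDA-MB-453, and above it in SKBR3. As the sites are not independent and the genes were chosen with results known, this is not a test.

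The T47D sites without FOXA1 were spread over 6 genes. HES4 held 3 of them, BHLHE40 2, and HES2, HEY1, HEY2 and HEYL 1 each, while every T47D TLE3 site near HES1, HES6 and BHLHE41 overlapped FOXA1. In SKBR3 replicate 1, 9 of the 10 HES1 peaks, 8 of the 9 BHLHE40 peaks and 0 of the 2 HES4 peaks overlapped a FOXA1 site. Replicate 2 of SKBR3 overlapped FOXA1 at 7 of 11 HES1 peaks, at 3 of 9 BHLHE40 peaks and at 0 of 8 HEYL peaks.

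Read from FOXA1, 27 of 73 sites near these genes overlapped a TLE3 site in T47D (37.0%), 16 of 77 in SKBR3 (20.8%) and 12 of 78 in MDA-MB-453 (15.4%). Over all FOXA1 sites the shares were 21.9%, 7.21% and 15.8%. Against SKBR3 TLE3 replicate 1 alone the share was 26 of 77 (33.8%), beside 20.9% over all FOXA1 sites. FOXA1 sites that overlapped TLE3 stood higher by score. Their median percentile was 85.2, against 48.1 for the others, in T47D, 80.9 against 51.1 in SKBR3 by replicate 1, and 90.1 against 50.7 in MDA-MB-453. All FOXA1 sites of the series gave 87.3 against 52.2, 87.5 against 50.6 and 91.7 against 52.1 in the same lines, so in these scores the genes here followed the series as a whole.

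**Figure D4:**
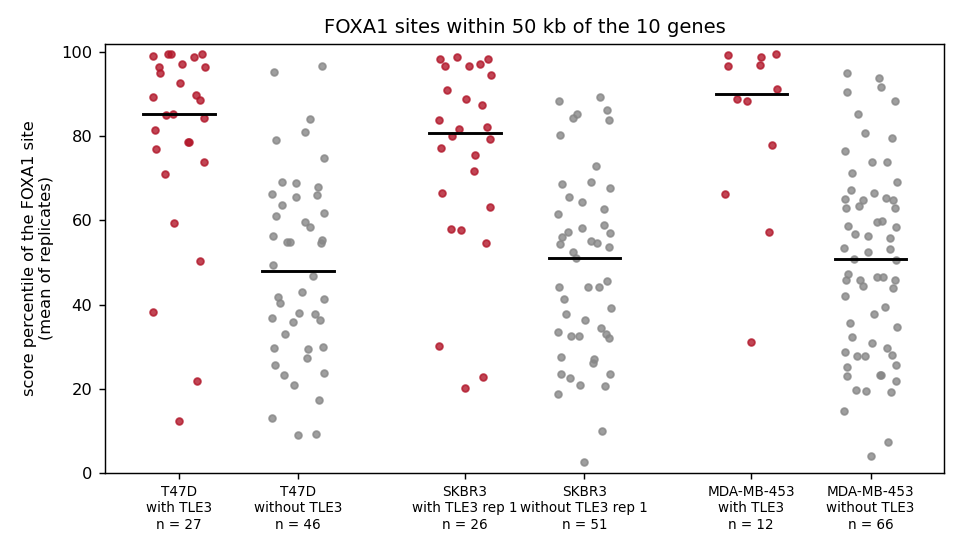
Score percentile of each FOXA1 site within 50 kb of the 10 genes (points, mean of both replicates within their lists), split by overlap with TLE3 in the same line (red) or not (grey), with black lines at the medians; SKBR3 uses TLE3 replicate 1. Sites with TLE3 have medians of 85.2, 80.9 and 90.1 in T47D, SKBR3 and MDA-MB-453, and both kinds spread over most of the range.

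Merged over the lines with SKBR3 TLE3 replicate 1, the TLE3 sites fell into 51 positions. Of these, 7 held TLE3 in all 3 lines (13.7%, against 13.5% of 47304 positions in the series), and all 7 held FOXA1 in all 3 lines as well. They were 4954 and 997 bp before the HES1 start, 45863 bp before the HES6 start, 7092 bp before the HEY2 start, and 1016 bp before, 6883 bp after and 20534 bp after the BHLHE40 start. With SKBR3 sites of both replicates, 4 of 43 positions held TLE3 in all lines (9.30%, against 5.52%). At the other end, 10 of the 51 positions held no FOXA1 site in any line, and 9 of these 10 held TLE3 in 1 line. Among them were positions 19818 and 40742 bp before the HES4 start and 135 and 2006 bp before the HEY2 start. A further position lay 894 bp after the BHLHE40 start. FOXA1 at these merged positions was counted near the repressor genes only, not over the 47304 positions of the series. Whether the counts with FOXA1 in all lines or in no line are unusual was therefore not tested.

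To compare the factors across lists of unequal length, peaks within 50 kb of each gene were expressed per 100000 peaks of their list, which does not make the lists equally long, and fitted with limma as log2(value + 1). The log scale with this pseudocount understates the change of genes with few peaks. HES4 was the only one of the 10 that differed between TLE3 and FOXA1 over the lines. It had 16.6 and 16.3 peaks per 100000 in T47D TLE3 libraries, against 3.39 and 2.68 in T47D FOXA1 libraries. In SKBR3 it had 9.46 and 11.7 for TLE3, against 0.929 and 1.71 for FOXA1. In MDA-MB-453 it had 4.68 and 8.81 for TLE3, against 4.79 and 2.61 for FOXA1. The factors were apart in T47D and SKBR3 and overlapped in MDA-MB-453. The fitted difference, a mean over the 3 lines, was 1.72 ± 0.25 (SE, n = 2 libraries per factor in each line; limma adjusted p = 0.00586). Its SE comes from the spread between replicates within groups, not from the spread between lines. Of 18990 genes tested, 9.45% were called in either direction and 6.31% as higher for TLE3 (3.13% as lower), so 1 call among 10 genes is near the background. HES4 was called again in each of the 12 fits that left out 1 library. It was not called with a 10 kb window (1.43, limma adjusted p = 0.056) or on the upper 50% of each list (0.20, limma adjusted p = 0.898), and on raw peak numbers, without list length, the difference was 0.21. With every list cut to its 21149 highest scores, a setting chosen after seeing the data, HES4 had 2 and 2 TLE3 peaks against 1 and 1 FOXA1 peaks in T47D, 2 and 4 against 1 and 1 in SKBR3, and 1 and 1 against 0 and 0 in MDA-MB-453. TLE3 lay above FOXA1 in each line, and the difference was 1.57 (limma adjusted p = 0.000547), with 23.4% of 10540 genes called. Numbers this small leave little spread, and 3.23% of those genes had identical replicates in all 6 groups.

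The other genes did not pass. HEY2 had 13.3 and 16.3 peaks per 100000 for TLE3 against 9.51 and 8.05 for FOXA1 in T47D, 9.46 and 9.54 against 4.65 and 5.99 in SKBR3, and 7.03 and 13.2 against 7.45 and 9.80 in MDA-MB-453. Its difference was 0.53 ± 0.18 (SE; limma adjusted p = 0.0982). BHLHE40 gave 0.67 ± 0.30 (limma adjusted p = 0.183), and HES1 0.54 ± 0.28 (limma adjusted p = 0.249). On raw peak numbers these 3 turned negative, at -1.07 for HEY2, -1.02 for BHLHE40 and -1.17 for HES1. On equally long lists HEY2 and BHLHE40 were at 0.62 and 0.35, and HES1 was at -0.93, with 10 and 0 peaks in the SKBR3 TLE3 replicates. The median over the 10 genes was 0.47, beside -0.14 over all genes tested, and 2 of the 10 had an unadjusted limma p under 0.05, against 27.6% of all genes.

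The SKBR3 TLE3 replicates decided much of this. HES1 had 47.3 peaks per 100000 in replicate 1 and 11.7 in replicate 2, and BHLHE40 had 42.6 and 9.54. BHLHE41 had 0 and 8.48. Without replicate 2, 5 of the 10 genes were called, against 46.6% of all genes tested. Those higher for TLE3 were HES1 (0.86 ± 0.13), HES4 (1.67 ± 0.23), HEY2 (0.53 ± 0.18) and BHLHE40 (1.01 ± 0.14), and the one lower for TLE3 was BHLHE41 (-1.57 ± 0.42), with limma adjusted p of 0.00151, 0.00107, 0.0463, 0.00123 and 0.0174. Without replicate 1, 3 were called (HES4, HES6 and HEYL), against 24% of all genes.

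**Figure D5:**
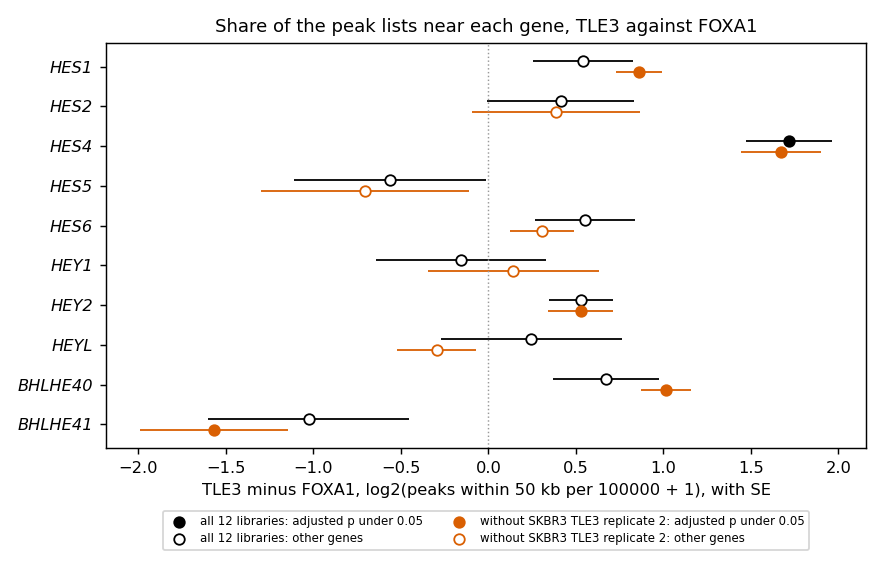
Fitted TLE3 minus FOXA1 difference (log2 of peaks per 100000 + 1, with SE) for each gene, from all 12 libraries (black) and without SKBR3 TLE3 replicate 2 (orange); filled points have a limma adjusted p under 0.05. HES4 lies near 1.7 in both fits, and HES1 and BHLHE40 gain calls and shorter error bars when the library is left out.

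Between lines no gene of the 10 was called in any of the 4 contrasts fitted to all 12 libraries. For FOXA1 the background was 0.0316% of genes called for T47D minus MDA-MB-453, 0.321% for T47D minus SKBR3 and 1.05% for SKBR3 minus MDA-MB-453, and the numbers of the 10 genes with an unadjusted limma p under 0.05 were 0, 0 and 2, against 6.64%, 12% and 13.9% of all genes. The 2 were HES1 and HES4. HES1 had 16.3 and 16.1 FOXA1 peaks per 100000 in T47D, 21.4 and 20.6 in SKBR3 and 7.98 and 8.50 in MDA-MB-453. Its SKBR3 minus MDA-MB-453 difference was 1.25 ± 0.49 (SE, n = 2 each; limma adjusted p = 0.285). The 3 lines did not overlap in these values. HES4, with 0.929 and 1.71 in SKBR3 against 4.79 and 2.61 in MDA-MB-453, gave -0.999 ± 0.42 (SE, n = 2 each; limma adjusted p = 0.33). Without SKBR3 TLE3 replicate 2, or without replicate 1, HES1 was called in this contrast, against 11.6% and 11.7% of all genes, although its FOXA1 values are the same, because the libraries share 1 estimate of the spread.

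For TLE3, T47D minus MDA-MB-453 called 17.7% of all genes and 0 of the 10, with 2 at an unadjusted limma p under 0.05, against 34.2% of all genes. The largest difference was for HES2, with 13.3 and 13.0 peaks per 100000 in T47D against 7.03 and 0 in MDA-MB-453 (2.32 ± 0.72, SE, n = 2 each; limma adjusted p = 0.0521). HES4 came next among those 2, with 16.6 and 16.3 in T47D against 4.68 and 8.81 in MDA-MB-453 (1.22 ± 0.42, SE; limma adjusted p = 0.0718). The median over the 10 genes was 1.03, beside 0.55 over all genes. Without SKBR3 TLE3 replicate 2, or without replicate 1, the call count was 4 (HES1, HES2, HES4 and BHLHE40), against 37.7% of all genes. Without MDA-MB-453 TLE3 replicate 1 it was 2 (HES2 and HEY1), against 19.1%, and without T47D TLE3 replicate 1 it was 1 (HES5), against 6.58%. Whether the TLE3 minus FOXA1 difference itself varied between lines was tested as an interaction, and limma called 0 of the 10 for T47D minus MDA-MB-453, for T47D minus SKBR3 and for SKBR3 minus MDA-MB-453, against 0.479%, 0% and 0.906% of all genes, with 2, 0 and 3 at an unadjusted limma p under 0.05, against 14%, 6.25% and 16%. The 2 were HES2 (2.52) and HES4 (1.41), and the 3 were HES2 (2.37), HES4 (1.62) and HES5 (3.06). For HES4 the limma adjusted p was 0.335 and 0.23 in these 2 contrasts.

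Around the rest of the Notch pathway the picture was mixed. A further 27 genes of the pathway were counted (receptors, ligands, RBPJ and its coactivators, fringes, proteases and targets). Of these, 24 had a TLE3 site within 50 kb in T47D, 17 in SKBR3 (22 by replicate 1 alone) and 20 in MDA-MB-453. For FOXA1 the counts were 26, 27 and 27. Of all protein-coding genes, 74.7%, 35.3% (57.3% by replicate 1 alone) and 55.3% had a TLE3 site, and 95%, 89.8% and 95.1% a FOXA1 site. In the TLE3 minus FOXA1 fit 3 of the 27 were called higher for TLE3 and 0 lower, beside 6.31% and 3.13% of all genes. They were LFNG, a glycosyltransferase that modifies Notch receptors (1.21 ± 0.17, limma adjusted p = 0.00577), HES7, the segmentation clock repressor (0.92 ± 0.19, limma adjusted p = 0.0168), and CCND1, the cell cycle gene for cyclin D1 (0.81 ± 0.22, limma adjusted p = 0.0469). All 3 turned negative on raw peak numbers, and CCND1 was called in 7 of 21 alternatives, HES7 in 12 and LFNG in 18. The most TLE3 sites summed over the lines lay near the RBPJ coactivators MAML3 (20) and MAML2 (16) and the RBPJ corepressor SPEN (11). With SKBR3 replicate 1 alone the order was MAML2 (23), MAML3 (22), the Notch inhibitor NUMB (14) and SPEN (13). MAML3 and MAML2 span 437432 and 366598 bp, far more than any of the repressor genes. ADAM17, a protease that sheds Notch, was the one gene with no TLE3 site in any line, though SKBR3 replicate 1 alone had 2 peaks there.

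The genes whose profile over the 12 libraries was nearest to HES1, by Euclidean distance on log2(peaks per 100000 + 1), were APOO, ST6GAL1, SCIMP, KLHL38 and SCNN1B, at distances from 0.931 to 1.04, where the median gene lay at 7.34. Nearest to BHLHE40 were PGRMC2, SGPP1, DNAJC16, EDEM1 and WDR89, at 0.648 to 0.865, where the median gene lay at 6.63.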

How the data were processed

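The members and gene lists were chosen with earlier results of these data known. ChIP-seq peak lists of 12 libraries were used. The tools were BWA 0.7.5a, MACS2, SAMtools and Trim Galore and the build hg38, per the submitters' processing notes. Caller settings and controls were not given in the sources used here. Every list as deposited gives chromosome, start, end, name and a peak score of the authors, whose quantity is not named; it was used only to rank peaks within a list. Lists are per library, hold no summits and no read counts, so centres stand for positions and depth is unknown.

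Peaks on chromosomes 1 to 22 and X were kept (15 left out). Overlap means at least 1 bp. Genes came from RefSeq GRCh38.p14, starts from its promoter table. The counts of peaks per gene were computed here, scaled per 100000 list peaks and fitted over all protein-coding genes with a mean of at least 1 peak (limma 3.58.1, R 4.3.3, eBayes with trend, group means, Benjamini-Hochberg over 18990 genes, threshold 0.05). Other steps used Python 3.11.15 with pandas 2.3.3 and numpy 2.4.6. Named were all 10 members; of the Notch list, genes called, the 3 with most TLE3 sites and those with none; and the 5 nearest profiles for the 2 members with most TLE3 sites. On simulated TLE3 minus FOXA1 data over 18842 genes, limma recovered 100% of 4-fold and of 8-fold changes and called 0.0322% of unchanged genes. The simulated counts were Poisson without further spread between replicates, and changes were planted only in genes with a mean of at least 8 peaks. The simulation therefore does not show how the fit performs on genes with few peaks or on replicates as unlike as those of SKBR3 TLE3. Alternatives were other windows (10 and 100 kb), pseudocounts (0.2 and 5), no filter, no scaling, the upper 50% of lists, equal lists of 21149 peaks (for the fits added after seeing the data), sites of either replicate, 50% overlap, a replicate block and each library left out.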

Additional observations from a re-analysis of the deposited data

How the results depend on the processing

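Of the alternatives run for counts of genes and overlap shares, 150 stayed near the reported value and 42 moved. The shares of all genes at these settings are not set beside the counts of members with a site or a covered start. Cut lists hold fewer sites in all, so a lower count there does not set these genes apart. Members with a TLE3 site numbered 3 in MDA-MB-453 at 10 kb (where 32.3% of all genes had one), and in SKBR3 2 on the upper 50% of lists and 1 on equally long lists. Members with a FOXA1 site numbered 6 in T47D and 5 in MDA-MB-453 on equally long lists. Leaving out a library gave 9 to 10 members with a TLE3 site in T47D, 8 to 10 in SKBR3, 6 to 9 in MDA-MB-453, and 10 with a FOXA1 site throughout. The overlap with FOXA1 was 88.9% in T47D at 10 kb and 52.2% on equally long lists, and in SKBR3 0% on equally long lists, where 1 site was left, and 42.6% with sites of either replicate. Leaving out a library gave 52.6 to 80.6% in T47D, 28.9 to 76.2% in SKBR3 and 82.1 to 100% in MDA-MB-453. Starts inside a TLE3 site, alternatives chosen after seeing the data, numbered 2 in T47D, 0 in SKBR3 and 0 in MDA-MB-453 on the upper 50%, 1 in SKBR3 and 0 in MDA-MB-453 on equally long lists, 7 in SKBR3 with sites of either replicate, and 1 to 6, 2 to 6 and 0 to 3 in T47D, SKBR3 and MDA-MB-453 on leaving out a library.

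Members called in the TLE3 minus FOXA1 fit numbered 2 at 10 kb (HEY2 and BHLHE40, with 7.29% of all genes called), 2 on the upper 50% (HES6 and HEY2, 5.85%), 6 without scaling (74.6%, and the median of all genes moved to -1.34), and 1 to 5 on leaving out a library (2.39 to 46.6%). In TLE3 T47D minus MDA-MB-453 they numbered 1 at 10 kb (15.6%), 1 at 100 kb (22.5%), 2 with a pseudocount of 5 (18.9%), 1 on the upper 50% (13.3%) and 0 to 4 on leaving out a library (6.58 to 37.7%), and in FOXA1 SKBR3 minus MDA-MB-453 0 to 1 (0 to 11.7%). On equally long lists, a setting chosen after seeing the data for the fits, they numbered 1 in TLE3 T47D minus MDA-MB-453 (HES2, 27.2%) and, for FOXA1, 1 in T47D minus MDA-MB-453 (HES4, 18.6%), 1 in T47D minus SKBR3 (HEY2, 22.1%) and 2 in SKBR3 minus MDA-MB-453 (HES4 and HEY2, 25.6%). For the interaction of factor and line, limma called HES4 on equally long lists (T47D minus MDA-MB-453, 10.6% of genes), HES2 without MDA-MB-453 TLE3 replicate 1 (T47D minus MDA-MB-453, 7.79%, and SKBR3 minus MDA-MB-453, 8.93%), and without SKBR3 TLE3 replicate 1 HES1 and BHLHE40 (T47D minus SKBR3, 8.94%) and HES1 and HEYL (SKBR3 minus MDA-MB-453, 30.4%). In the other settings FOXA1 T47D minus MDA-MB-453 and T47D minus SKBR3 stayed at 0. Values that turned negative did so without scaling (HEY2 -1.07, HES1 -1.17, BHLHE40 -1.02, LFNG -0.37, CCND1 -0.73, HES7 -0.61), HES7 also on the upper 50% (-0.33), and HES1 also on equally long lists (-0.93). The causes were not tested.

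Replicate numbers were not used to pair the samples in the main fit. Deviations of same-numbered libraries correlated between -0.15 and 0.24 over 15 pairs. The highest value was that of SKBR3 TLE3 with T47D TLE3, and the next was 0.061. With the replicate block the counts of members called were 1 for TLE3 minus FOXA1 (HES4, 7.93% of all genes called) and 0 in the 4 contrasts between lines, and CCND1 had a limma adjusted p of 0.0587. With no read counts, no limit of detection can be given.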
